A study of Mus musculus with 12 samples.

Results

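The genes described here encode the proteasome, the barrel-shaped protease that degrades ubiquitin-tagged proteins, together with its immune subunits and activators. They were taken by gene symbol from a list of 42 proteasome genes, drawn up by function with earlier results of these data known. Of these, 39 had a transcript cluster (the array's unit of measurement, roughly 1 per gene) annotated with that symbol alone, out of 65535 clusters in all. The 39 genes comprised 7 alpha-ring and 6 beta-ring subunits of the 20S core, 6 ATPase and 14 non-ATPase subunits of the 19S cap, and 6 immunoproteasome subunits or activators. Each gene had exactly 1 cluster, and 35 of the 39 lay at or above 6 log2 units on average, a level reached by 13061 of all clusters. Psmb5 and Psme2 had only clusters shared with other symbols and are counted without values below, and Adrm1 was not analysed here.

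Gene expression was measured on Clariom D mouse arrays in primary mouse oligodendrocyte precursor cells (OPCs), the cells that mature into myelin-forming oligodendrocytes. The question was how these cells respond at the transcript level to extracellular vesicles (EVs) released by microglia in different reactive states. MSC-EVs came from microglia that shared their culture with mesenchymal stem cells (MSC) while exposed to pro-inflammatory cytokines, IL4-EVs from microglia treated with interleukin-4, and i-EVs from microglia treated with the pro-inflammatory cytokines. CTRL cultures received medium with no vesicles. Each of the 4 groups had 3 arrays, 12 in all. All cultures shared the C57Bl/6 strain, brain tissue of postnatal day 2, magnetic sorting with anti-CD140a beads and a plating density of 300000 cells per well. All were expanded for 48 h with PDGF-AA and bFGF and then kept for 24 h in differentiation medium with the thyroid hormone T3. Vesicles from about 2 donor microglia per OPC were added approximately 4 h after that switch. No group analysed here received vesicles of unstimulated microglia. The labels do not say whether the 3 arrays of a group came from separate cell preparations, and p-values therefore reflect the spread among these 12 arrays, whose number limits the precision.

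All 7 measured OPC markers lay above 6 log2 units, and all 10 microglia markers were dim, with means between 3.16 and 3.88. At an adjusted p under 0.05, limma called 2 OPC markers higher with MSC-EVs, 1 with IL4-EVs and 0 with i-EVs. None was called lower. Over clusters of at least 6 log2 units, 15.3% were higher with MSC-EVs and 6.47% with IL4-EVs. Cspg4 had the highest change of the 7, at 0.79, 0.32 and 0.4 with MSC-EVs, IL4-EVs and i-EVs. Its MSC-EVs arrays read 9.7, 9.84 and 10.57, so replicate 3 raised the first of these changes. The summed level of the microglia markers ran from 6.59 to 6.71 log2 units across the MSC-EVs arrays, from 6.67 to 6.73 across IL4-EVs, from 6.72 to 6.81 across i-EVs and from 6.71 to 6.76 across CTRL. Replicate 3 of the MSC-EVs group stood apart. It alone set the upper end of the cell-cycle list (15.78 to 17.59 across the MSC-EVs arrays, against 16 to 16.11 across the CTRL arrays) and the lower end of the oligodendrocyte list (10.95 to 12.32, against 11.97 to 12.12 in CTRL), and counts without it are given below. The cell-cycle list also lay lower than CTRL with the other vesicles, at 15.78 to 15.93 across the IL4-EVs arrays and 15.7 to 15.76 across the i-EVs arrays. Of its 9 genes, 8 did not overlap CTRL and were lower in each of these groups. With IL4-EVs and i-EVs this held for 42.3% and 31% of clusters of at least 6 log2 units. The other gene, Mki67, changed by 0.4 and 0.04. The list medians were -0.528 and -0.532, and limma called 0 of the 9 genes (3 and 0 at an unadjusted p under 0.05). That fit shares 1 spread over all 4 groups, and replicate 3 of the MSC-EVs widened it. For Cdk1 the SD was 0.911 with MSC-EVs and 0.065 with IL4-EVs. Among 6 neuron markers, Snap25 and Nefl fell with MSC-EVs (-0.44 and -0.55) and with IL4-EVs (-0.56 and -0.4). The other 4 were not called. Of these, Tubb3 also lay below CTRL without overlap (7.37 to 7.59 with MSC-EVs, 7.41 to 7.54 with IL4-EVs, 7.67 to 7.88 in CTRL). This held for 37.2% and 42.3% of clusters of at least 6 log2 units. Map2 did not fall, with means of 13, 12.94 and 12.9 in the same order. The dim Syt1 (mean 5.01) had the highest change, 0.24 with MSC-EVs and 0.09 with IL4-EVs. Its MSC-EVs arrays read 4.98, 5.05 and 5.46, the last being replicate 3. Among 6 astrocyte markers, Slc1a2 rose with MSC-EVs (0.33) and Slc1a3 fell with IL4-EVs (-0.29). S100b had the lowest change with MSC-EVs (-0.99) and was not called. It read 10.27, 10.34 and 8.15 on those arrays, replicate 3 being the low one, and 10.48, 10.59 and 10.65 in CTRL. The summed astrocyte list ran from 9.13 to 10.6 with MSC-EVs and from 10.57 to 10.7 with IL4-EVs. It ran from 10.49 to 10.67 with i-EVs and from 10.71 to 10.87 in CTRL. The part of these lists in the change of the proteasome genes was not tested. In bulk RNA, fewer cells of a type and less RNA per cell cannot be told apart.

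As background, the 20S core is a stack of rings in which the alpha subunits form the gates and the beta subunits form the chamber, with proteolytic sites on Psmb5, Psmb6 and Psmb7. The 19S cap holds a ring of ATPases that unfold the substrate and a set of non-ATPase subunits that bind and remove ubiquitin, and alternative caps (PA28, PA200) can replace it. In cells exposed to interferon, Psmb8, Psmb9 and Psmb10 take the places of the constitutive catalytic subunits, which makes the immunoproteasome. Mammalian cells hold subunit genes in balance partly through the transcription factor Nfe2l1, which raises them together when proteasome activity is short.

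The promoters of Psmb6, the gene with the lowest change with MSC-EVs and IL4-EVs, of Psma5, the alpha subunit that fell most, and of Psme4, the activator that moved the other way, are shown because the members they belong to frame the results. Each runs from 250 bases before to 50 bases after the start site that the RefSeq promoter table of GRCm38.p6 uses (the annotated start of the Psmb6 gene lies after 217 bases of its window), at chr11:70525107-70525406, chr3:108256676-108256975 and chr11:30771525-30771824, all on the plus strand and written 5′ to 3′. Capitals mark matches to TGACNNNGC (the core of the antioxidant response element that Nfe2l1 and Nfe2l2 bind), CCGGAAG (an ETS site) or GCCATNTT (a site of the YY1 type), on either strand. CCAAT (the NF-Y site), also searched on both strands, is in none of the 3.
Psmb6: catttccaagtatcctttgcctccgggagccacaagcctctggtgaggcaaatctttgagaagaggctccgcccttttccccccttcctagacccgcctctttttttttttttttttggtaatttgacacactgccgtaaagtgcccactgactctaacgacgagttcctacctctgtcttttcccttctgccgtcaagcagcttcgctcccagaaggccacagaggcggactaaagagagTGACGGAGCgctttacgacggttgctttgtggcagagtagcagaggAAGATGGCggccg
Psma5: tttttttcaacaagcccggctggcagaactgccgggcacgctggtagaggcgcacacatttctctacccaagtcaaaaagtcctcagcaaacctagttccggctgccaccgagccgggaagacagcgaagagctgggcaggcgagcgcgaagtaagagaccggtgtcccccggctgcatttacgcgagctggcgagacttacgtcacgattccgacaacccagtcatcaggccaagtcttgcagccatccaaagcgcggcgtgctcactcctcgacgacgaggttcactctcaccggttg
Psme4: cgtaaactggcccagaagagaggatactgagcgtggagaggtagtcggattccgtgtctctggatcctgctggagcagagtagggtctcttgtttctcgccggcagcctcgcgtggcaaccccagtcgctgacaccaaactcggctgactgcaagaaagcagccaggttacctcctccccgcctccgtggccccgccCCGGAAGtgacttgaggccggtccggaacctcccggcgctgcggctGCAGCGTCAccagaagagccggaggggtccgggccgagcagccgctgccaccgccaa

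The Psmb6 window held TGACGGAGC and, on the minus strand, a GCCATNTT match. The Psma5 window held no match to any of the motifs searched. The Psme4 window held CCGGAAG and a minus-strand TGACNNNGC match. A promoter was listed for 33 of the 39 genes, with 2 each for Psma6 and Psmc2. A member was counted if any of its promoters held the motif, while the backgrounds count single promoters, so the shares are not fully alike. TGACNNNGC was found in 5 of the 33 genes (15.2%), against 12.4% of all 32851 promoters and 13.9% of the 7311 promoters of genes with a cluster above 6 log2 units. CCGGAAG was found in 12 (36.4%), against 8.86% and 20% of those backgrounds, among them Psma6, Psmc1, Psmc2, Psmd2, Psmd6 and Psme3. The shares for CCAAT were 39.4% of members, 37.4% of all promoters and 39.1% of promoters of brighter genes, and those for GCCATNTT 15.2%, 6.05% and 9.97%. Genes that fell and genes that were not called both carried CCGGAAG, for example Psmd6 and Psmd2.

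With MSC-EVs, transcripts of most proteasome subunits were lower than in CTRL. Of the 39 genes, 28 fell and 1, Psme4, rose at an adjusted p under 0.05 (limma, Benjamini-Hochberg over all clusters), and 10 were not called. Across all clusters the test called 6.75% lower and 5.86% higher, and across clusters of at least 6 log2 units 26.2% and 15.3%. The median change of the 39 genes was -0.391 on the log2 scale, against -0.008 over all clusters and -0.095 over the brighter ones. The arrays of the 2 groups did not overlap, with MSC-EVs the lower, for 30 of the 39 genes, against 14.5% of all clusters and 37.2% of the brighter ones. A fold of at least 1.5 was reached by 6 of the genes that fell, against 2.62% of all clusters. The share over the brighter clusters was not counted for this rule, so nothing particular to the members is read from it. Without replicate 3 of the MSC-EVs group, 30 genes fell and 1 rose, and the median was -0.448.

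With IL4-EVs the decrease covered slightly more genes. Lower transcript levels than in CTRL were called for 31 of the 39 genes, against 4.13% of all clusters and 18% of the brighter ones, and a higher level for Psme4 alone, against 1.61% and 6.47%. The other 7 genes were not called. The median change was -0.488, against 0.001 over all clusters and -0.078 over the brighter ones. The arrays did not overlap, with IL4-EVs the lower, for 33 genes (14.6% of all clusters, 42.3% of the brighter ones). A fold of at least 1.5 was reached by 7 of the genes that fell (1.26% of all clusters), again with no share counted over the brighter ones. All 28 genes that fell with MSC-EVs also fell with IL4-EVs, and the remaining 3 were Psma1, Psmc6 and Psmd7. Both comparisons use the same CTRL arrays.

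With i-EVs the shift had the same sign and a smaller size. The median change was -0.265, against 0.019 over all clusters and -0.068 over the brighter ones, and 33 of the 39 genes were below CTRL in their mean. After a further quantile normalization the median was -0.166, and after cyclic loess -0.139. Only 4 genes passed the test, all lower (Psma5, Psmb6, Psmd10 and Psmd14), against 0.378% of all clusters and 1.75% of the brighter ones, while 29 had an unadjusted p under 0.05. None was called higher, against 0.0977% of all clusters. Of these 4, Psmd10 fell outside the rule for named genes and was chosen after its values were seen, as were the other genes given below by their changes alone. The arrays did not overlap, with i-EVs the lower, for 27 genes, against 9.98% of all clusters and 31% of the brighter ones. No such share was counted for the 33 means below CTRL or the 29 unadjusted p-values. Nothing particular to the proteasome genes is read from those counts. The count of 4 rested on single arrays. It became 0 without any 1 of the 3 IL4-EVs or 3 CTRL arrays and without replicate 2 or replicate 3 of the i-EVs, 11 without replicate 1 of the i-EVs and 12 without replicate 3 of the MSC-EVs. It was 2 after either of these normalizations, 0 with an intensity trend, 0 with only the i-EVs and CTRL arrays in the fit, and 19 with only clusters of at least 6 log2 units.

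**Figure D1:**
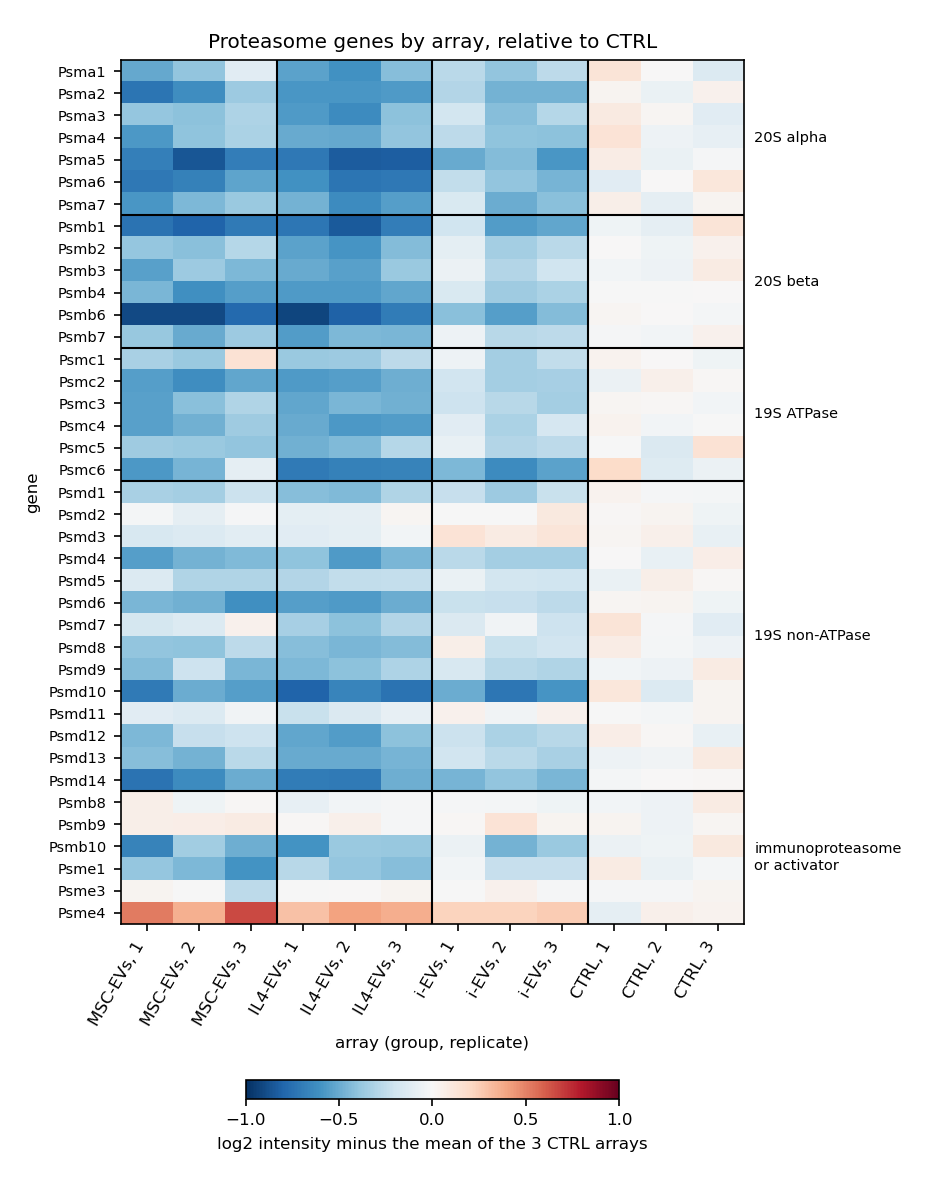
Log2 intensity of each of the 39 proteasome genes (vertical axis, by class) on each of the 12 arrays (horizontal axis), minus the mean of the 3 CTRL arrays, with blue lower and red higher. Most rows of the 20S and 19S classes are blue under all MSC-EVs and IL4-EVs arrays and paler under i-EVs, Psmd2 and Psme3 are near white, and Psme4 is red.

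The decrease was visible array by array. Over the 33 constitutive 20S and 19S genes, the median deviation from the CTRL mean was -0.455, -0.424 and -0.354 log2 units on the 3 MSC-EVs arrays and -0.515, -0.556 and -0.457 on the IL4-EVs arrays. It was -0.192, -0.343 and -0.284 on the i-EVs arrays, and 0.018, -0.024 and 0.005 on the CTRL arrays. Every vesicle-treated array thus lay below every CTRL array in this median, and the i-EVs arrays lay between CTRL and the other groups. The lowest of the 12 values of a constitutive gene was always on an MSC-EVs or IL4-EVs array, and the highest was on a CTRL array for 29 of the 33. The order of group means was CTRL, i-EVs, MSC-EVs, IL4-EVs from high to low in 23 of the 33. No share over all clusters was counted for these orders of arrays and groups, so nothing particular to the members is read from them. Direct tests called 0 members for IL4-EVs against i-EVs and for MSC-EVs against IL4-EVs (limma).

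The alpha ring moved as a block. Of its 7 genes, 6 fell with MSC-EVs, 7 with IL4-EVs and 1 with i-EVs, with medians of -0.467, -0.552 and -0.361. Psma5, an alpha-ring subunit, read 10.93, 10.76 and 10.92 log2 units with MSC-EVs, 10.9, 10.78 and 10.79 with IL4-EVs, 11.11, 11.18 and 11.03 with i-EVs, and 11.69, 11.55 and 11.6 in CTRL. The MSC-EVs and IL4-EVs arrays overlapped each other, the i-EVs arrays lay above them and below CTRL, and no vesicle-treated array reached the CTRL range. The changes against CTRL were -0.74 ± 0.0728 with MSC-EVs (SE, adjusted p = 0.000322), -0.79 with IL4-EVs (adjusted p = 0.00124) and -0.51 with i-EVs (adjusted p = 0.0361). Psma6 read 10.91, 10.95 and 11.1 with MSC-EVs, 11.02, 10.9 and 10.91 with IL4-EVs, 11.38, 11.23 and 11.16 with i-EVs, and 11.51, 11.63 and 11.74 in CTRL. It changed by -0.64 with MSC-EVs (adjusted p = 0.000923), -0.68 with IL4-EVs (adjusted p = 0.0018) and -0.37 with i-EVs (adjusted p = 0.0712). Its i-EVs arrays lay below CTRL without overlap, although that change was not called.

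Psma1, the alpha gene with the weakest evidence of a difference between the 4 groups, read 10.09, 10.21 and 10.49 log2 units with MSC-EVs, 10.07, 10 and 10.18 with IL4-EVs, 10.33, 10.21 and 10.34 with i-EVs, and 10.73, 10.61 and 10.47 in CTRL. Replicate 3 of the MSC-EVs overlapped the CTRL range, and no other vesicle-treated array did. The changes were -0.34 with MSC-EVs (adjusted p = 0.0593), -0.52 with IL4-EVs (adjusted p = 0.014) and -0.31 with i-EVs (adjusted p = 0.207). The call with IL4-EVs was lost without replicate 1 or replicate 2 of the IL4-EVs or replicate 1 of CTRL (up to adjusted p = 0.0731) and after cyclic loess (adjusted p = 0.0515), and a call with MSC-EVs appeared without replicate 3 of the MSC-EVs or of CTRL. The other 4 alpha genes, Psma2, Psma3, Psma4 and Psma7, changed by -0.37 to -0.57 with MSC-EVs. With IL4-EVs their changes lay between -0.57 and -0.47, and with i-EVs between -0.41 and -0.3.

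All 6 measured beta-ring genes fell with MSC-EVs and with IL4-EVs, and 1 fell with i-EVs, with medians of -0.496, -0.535 and -0.254. Psmb6, the subunit with caspase-like activity, had the lowest change of all members in both comparisons. It read 9.59, 9.59 and 9.71 log2 units with MSC-EVs, 9.57, 9.68 and 9.79 with IL4-EVs, 10.07, 9.94 and 10.06 with i-EVs, and 10.51, 10.49 and 10.47 in CTRL. The i-EVs arrays lay between CTRL and the other groups without overlap on either side. The changes were -0.86 with MSC-EVs (0.551 of the CTRL level, 95% interval -1.02 to -0.7, adjusted p = 0.000214), -0.81 with IL4-EVs (0.569, -0.97 to -0.66, adjusted p = 0.00111) and -0.46 with i-EVs (0.725, -0.62 to -0.31, adjusted p = 0.0361).

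Psmb4, a structural beta subunit, read 7.2, 7.04 and 7.1 log2 units with MSC-EVs, 7.09, 7.09 and 7.13 with IL4-EVs, 7.5, 7.3 and 7.34 with i-EVs, and 7.65, 7.65 and 7.66 in CTRL. Its CTRL arrays lay within 0.01 log2 units of each other and above every other array. It changed by -0.54 with MSC-EVs (adjusted p = 0.000676), -0.55 with IL4-EVs (adjusted p = 0.0018) and -0.27 with i-EVs (adjusted p = 0.0869). Psmb3, also structural, had the weakest evidence among the beta genes, with 6.81, 6.99 and 6.9 with MSC-EVs, 6.85, 6.81 and 6.98 with IL4-EVs, 7.29, 7.06 and 7.15 with i-EVs, and 7.32, 7.3 and 7.43 in CTRL. Here too the groups did not overlap CTRL, but replicate 1 of the i-EVs came within 0.01 log2 units of it. Its changes were -0.45 (adjusted p = 0.00404), -0.47 (adjusted p = 0.00629) and -0.18 (adjusted p = 0.349) with MSC-EVs, IL4-EVs and i-EVs. Psmb1, Psmb2 and Psmb7, of which Psmb7 carries trypsin-like activity, changed by -0.36 to -0.75 with MSC-EVs. Their changes lay between -0.75 and -0.49 with IL4-EVs, and between -0.43 and -0.19 under i-EVs. Clusters of the processed pseudogenes Psmb5-ps and Psmb6-ps also fell (-0.83 and -0.67 with MSC-EVs, -0.72 and -0.34 with IL4-EVs), and signal of near-identical copies cannot be told apart on the array. Psmb5 itself was not read from a cluster of its own.

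Of the 6 ATPases of the 19S base, 4 fell with MSC-EVs, 5 with IL4-EVs and 0 with i-EVs (5 at an unadjusted p under 0.05), with medians of -0.399, -0.512 and -0.245. Psmc2 read 10.89, 10.82 and 10.92 log2 units with MSC-EVs, 10.87, 10.89 and 10.95 with IL4-EVs, 11.25, 11.1 and 11.11 with i-EVs, and 11.38, 11.49 and 11.45 in CTRL. As for Psmb6, the i-EVs arrays formed a level of their own below CTRL. The changes were -0.56 with MSC-EVs (adjusted p = 0.000505), -0.54 with IL4-EVs (adjusted p = 0.00166) and -0.29 with i-EVs (adjusted p = 0.0675). Psmc4 read 10.88, 10.95 and 11.07 with MSC-EVs, 10.92, 10.85 and 10.87 with IL4-EVs, 11.31, 11.11 and 11.26 with i-EVs, and 11.46, 11.4 and 11.42 in CTRL. It changed by -0.46 with MSC-EVs (adjusted p = 0.00189), -0.54 with IL4-EVs (adjusted p = 0.00205) and -0.2 with i-EVs (adjusted p = 0.237).

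Psmc1 was the ATPase with the least difference between groups. It read 11.86, 11.81 and 12.33 log2 units with MSC-EVs, 11.81, 11.82 and 11.92 with IL4-EVs, 12.13, 11.84 and 11.94 with i-EVs, and 12.22, 12.19 and 12.14 in CTRL. Replicate 3 of the MSC-EVs gave the highest of the 12 values, while the other arrays with MSC-EVs lay below CTRL. The changes were -0.19 with MSC-EVs (adjusted p = 0.448), -0.33 with IL4-EVs (adjusted p = 0.176) and -0.21 with i-EVs (adjusted p = 0.528). Without that array, Psmc1 was called lower with MSC-EVs (-0.35, adjusted p = 0.0258) and with IL4-EVs (adjusted p = 0.024). Psmc6 was likewise not called with MSC-EVs (-0.37, adjusted p = 0.066) and fell with IL4-EVs (-0.68, adjusted p = 0.00671). Psmc3 and Psmc5 fell by 0.37 to 0.42 with MSC-EVs and by 0.4 to 0.49 with IL4-EVs on the log2 scale.

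Of the 14 non-ATPase subunits of the 19S cap, 10 fell with MSC-EVs, 11 with IL4-EVs and 2 with i-EVs, with medians of -0.325, -0.413 and -0.242. Psmd14, the deubiquitinase that cuts ubiquitin chains off the substrate, read 8.3, 8.41 and 8.54 log2 units with MSC-EVs, 8.34, 8.33 and 8.55 with IL4-EVs, 8.57, 8.64 and 8.58 with i-EVs, and 9.02, 9.04 and 9.05 in CTRL. The highest vesicle-treated array, at 8.64, lay below the lowest CTRL array, at 9.02. The changes were -0.62 with MSC-EVs (adjusted p = 0.000695), -0.63 with IL4-EVs (adjusted p = 0.0018) and -0.44 with i-EVs (adjusted p = 0.0427). Psmd6, a subunit of the 19S lid, read 11.07, 11.04 and 10.91 with MSC-EVs, 10.97, 10.96 and 11.03 with IL4-EVs, 11.3, 11.29 and 11.26 with i-EVs, and 11.54, 11.55 and 11.48 in CTRL. Its i-EVs arrays lay within a narrow band between those of CTRL and of the other groups. The changes were -0.52 with MSC-EVs (adjusted p = 0.000564), -0.53 with IL4-EVs (adjusted p = 0.00147) and -0.24 with i-EVs (adjusted p = 0.096).

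Psmd10 (gankyrin), a chaperone of 19S assembly, changed by -0.59 with MSC-EVs, -0.73 with IL4-EVs and -0.61 with i-EVs, and was the 1 member whose fold with i-EVs reached 1.5 (0.122% of all clusters fell that far and passed the test). The share over the brighter clusters was not counted. The other chaperones in this class, Psmd5 and Psmd9, changed by -0.24 and -0.37 with MSC-EVs, and Psmd9 was dim, with a mean of 4.76 log2 units.

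A few non-ATPase genes did not pass the test anywhere. Psmd2, the scaffold of the 19S base that receives ubiquitin-carrying shuttles, read 13.68, 13.61 and 13.69 log2 units with MSC-EVs, 13.6, 13.61 and 13.72 with IL4-EVs, 13.7, 13.7 and 13.8 with i-EVs, and 13.71, 13.73 and 13.66 in CTRL. Each vesicle-treated group overlapped CTRL. The changes were -0.04 with MSC-EVs (95% interval -0.18 to 0.09), -0.06 with IL4-EVs (-0.19 to 0.08) and 0.03 with i-EVs (-0.1 to 0.17), with adjusted p of 0.791, 0.779 and 0.88, and these intervals exclude a change of the size seen for Psmb6. After a further quantile normalization its changes were 0.15, 0.14 and 0.22 in the same order, still not called. The lid subunits Psmd3 and Psmd11 were not called either, Psmd3 with changes of -0.13, -0.08 and 0.11 and Psmd11 with -0.09, -0.15 and 0.02 under MSC-EVs, IL4-EVs and i-EVs. Psmd7, the lid partner of Psmd14, was not called with MSC-EVs (-0.08, adjusted p = 0.669) and fell with IL4-EVs (-0.35, adjusted p = 0.0336). As a description over the 12 arrays, the correlation of a gene with the mean of the other constitutive genes was 0.43 for Psmd2, 0.48 for Psmd3 and 0.68 for Psmd7, 0.74 for Psmc1 and Psmd11, and between 0.83 and 0.98 for the other genes, on arrays that share their normalization.

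**Figure D2:**
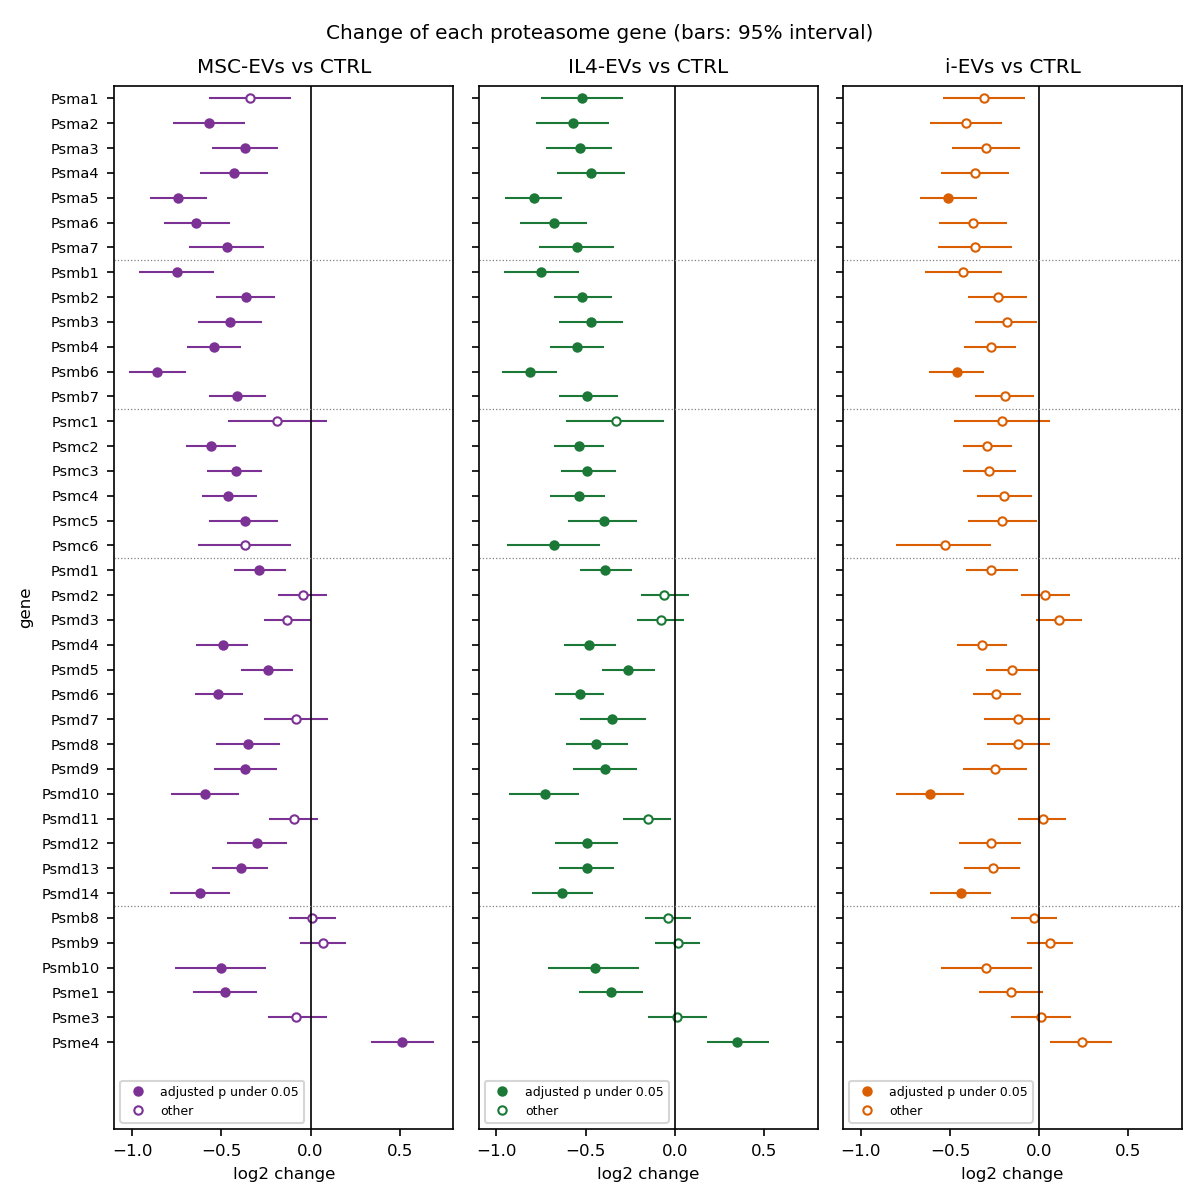
Log2 change of each of the 39 genes (vertical axis) with MSC-EVs, IL4-EVs and i-EVs against CTRL (horizontal axis, 1 panel each), with the 95% interval as a bar and a filled point where the adjusted p was under 0.05. Filled points lie left of 0 for 28, 31 and 4 genes, and right of 0 for Psme4 with MSC-EVs and IL4-EVs.

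The immunoproteasome subunits did not follow a single pattern. Psmb8 and Psmb9, which replace the constitutive subunits in cells exposed to interferon, were at the dim end of the array in every group. Psmb8 read 3.23, 3.13 and 3.18 log2 units with MSC-EVs, 3.09, 3.14 and 3.16 with IL4-EVs, 3.16, 3.15 and 3.13 with i-EVs, and 3.14, 3.12 and 3.25 in CTRL. Psmb9 read 3.41, 3.42 and 3.43 with MSC-EVs, 3.36, 3.4 and 3.34 with IL4-EVs, 3.36, 3.49 and 3.38 with i-EVs, and 3.38, 3.3 and 3.37 in CTRL. Their changes against CTRL lay between -0.04 and 0.07, with adjusted p of at least 0.563, and at such a level a difference may be undetectable. Psmb10 was somewhat brighter, with 5.22, 5.54 and 5.4 with MSC-EVs, 5.29, 5.52 and 5.51 with IL4-EVs, 5.83, 5.42 and 5.52 with i-EVs, and 5.83, 5.85 and 5.99 in CTRL. Replicate 1 of the i-EVs reached the lowest CTRL value, and no other vesicle-treated array did. Psmb10 fell with MSC-EVs (-0.5, adjusted p = 0.0143) and with IL4-EVs (-0.45, adjusted p = 0.0428), and changed by -0.3 with i-EVs (adjusted p = 0.278). The call with MSC-EVs was lost without replicate 1 of the MSC-EVs or replicate 3 of CTRL (up to adjusted p = 0.057). That with IL4-EVs was lost without any 1 of the IL4-EVs or CTRL arrays or replicate 3 of the i-EVs (up to adjusted p = 0.158), after quantile normalization (adjusted p = 0.056) and with the replicate number as a block (adjusted p = 0.0693).

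An immune subunit was set against the constitutive subunit whose place it takes within each array. For Psmb10 minus Psmb7, the difference changed by -0.09 with MSC-EVs, 0.03 with IL4-EVs and -0.1 with i-EVs relative to CTRL (exact permutation test of the F statistic over the 4 groups, 369600 arrangements, p = 0.491, adjusted p = 0.491 over 2 pairs). No such comparison is read for Psmb9 and Psmb6, because Psmb9 stayed at its dim level in all groups and the difference would only repeat the fall of Psmb6.

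The alternative caps went separate ways. Psme1, a PA28 subunit, read 7.23, 7.17 and 7.02 log2 units with MSC-EVs, 7.34, 7.23 and 7.19 with IL4-EVs, 7.59, 7.39 and 7.39 with i-EVs, and 7.7, 7.55 and 7.6 in CTRL. Only the i-EVs arrays overlapped CTRL. The changes were -0.48 with MSC-EVs (adjusted p = 0.00323), -0.36 with IL4-EVs (adjusted p = 0.0255) and -0.16 with i-EVs (adjusted p = 0.46), and the call with IL4-EVs was lost without replicate 2 or replicate 3 of the IL4-EVs or replicate 1 or replicate 3 of CTRL (up to adjusted p = 0.118), after quantile normalization (adjusted p = 0.0501) and after cyclic loess (adjusted p = 0.0702). Psme3, the nuclear PA28 form, read 13.05, 13.02 and 12.76 with MSC-EVs, 13.02, 13.03 and 13.05 with IL4-EVs, 13.02, 13.07 and 13.01 with i-EVs, and 13.01, 13.01 and 13.05 in CTRL. Apart from replicate 3 of the MSC-EVs, its arrays lay within 0.06 log2 units of each other, and its changes of -0.08, 0.01 and 0.01 with MSC-EVs, IL4-EVs and i-EVs were not called (adjusted p of at least 0.637).

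Psme4, which encodes the nuclear activator PA200, was the only member that rose. It read 9.09, 8.92 and 9.23 log2 units with MSC-EVs, 8.86, 8.97 and 8.93 with IL4-EVs, 8.79, 8.79 and 8.82 with i-EVs, and 8.48, 8.62 and 8.6 in CTRL. Every vesicle-treated array lay above every CTRL array. It was 0.51 higher with MSC-EVs (1.43-fold, 95% interval 0.34 to 0.69, adjusted p = 0.00175) and 0.35 higher with IL4-EVs (1.28-fold, 0.18 to 0.53, adjusted p = 0.0225), and the change with i-EVs was 0.24 (0.06 to 0.41, adjusted p = 0.197). The call with IL4-EVs was lost without replicate 2 or replicate 3 of the IL4-EVs or without any 1 CTRL array (up to adjusted p = 0.107). Under a further quantile normalization or cyclic loess, Psme4 was still called higher with MSC-EVs (0.57 and 0.61) and with IL4-EVs (0.43 and 0.46).

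**Figure D3:**
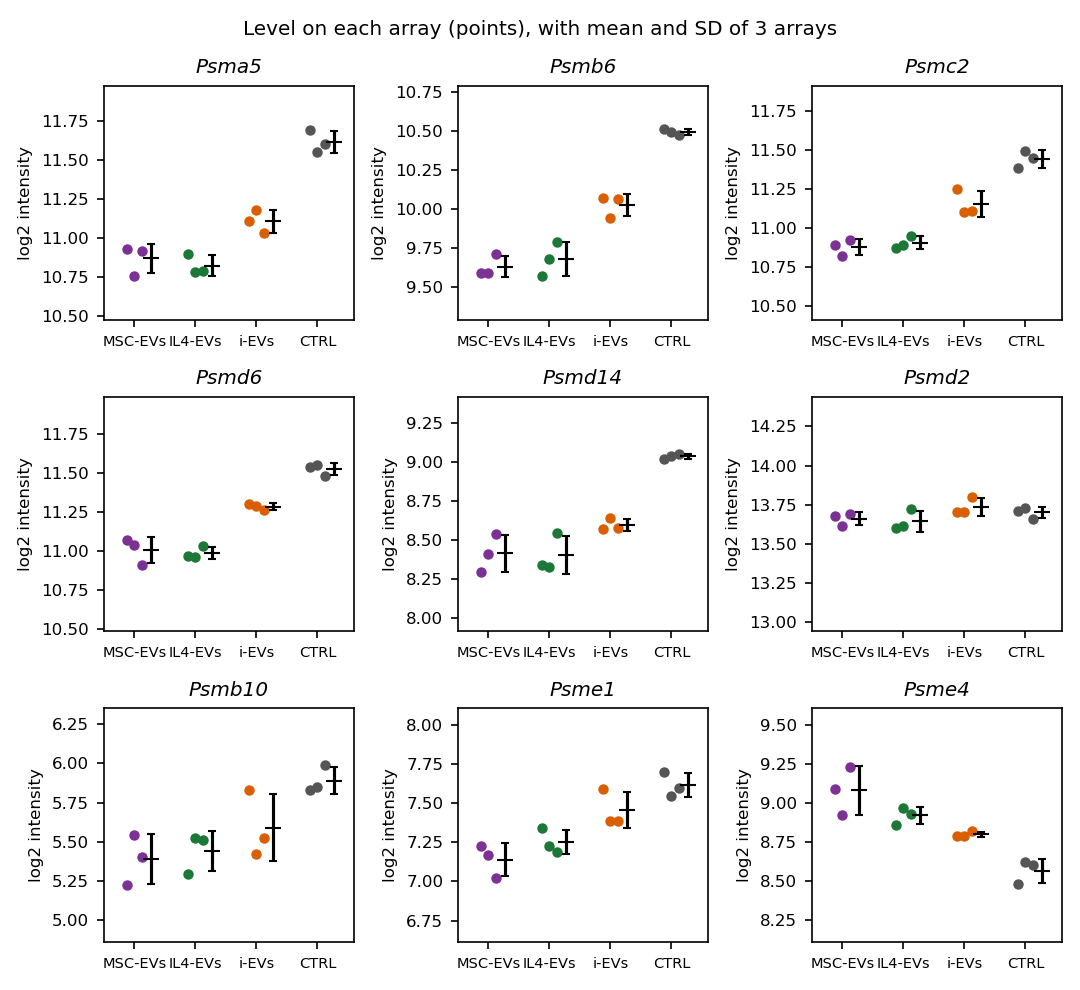
Log2 intensity (vertical axis, 1.5 log2 units in every panel) of 9 proteasome genes on each array, with groups from left to right as MSC-EVs, IL4-EVs, i-EVs and CTRL, points for arrays and a black bar for the mean and SD of 3 arrays. Psma5, Psmb6, Psmc2, Psmd6 and Psmd14 are lower in the vesicle-treated groups than in CTRL, Psmd2 is level, and Psme4 runs the other way, with means of 9.08, 8.92, 8.8 and 8.57.

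The kinds of vesicles were also compared with each other directly. With MSC-EVs against i-EVs, 2 of the 39 genes were lower, Psmb6 (-0.4, adjusted p = 0.0286) and Psmd6 (-0.28, adjusted p = 0.0496), against 0.385% of all clusters called lower and 1.07% higher, and 16 genes had an unadjusted p under 0.05. The 39 intervals of this difference all lay within a fold of 1.5 in either direction, with bounds of -0.55 (Psmb6) and 0.45 (Psme4). The count was 0 without replicate 1 or replicate 3 of the MSC-EVs or of the i-EVs, 3 without replicate 2 of the MSC-EVs, and 1 without any 1 of the other arrays. In the fit of clusters of at least 6 log2 units it was 8, with 7 lower and 1 higher. With IL4-EVs against i-EVs, 0 genes were called by limma, as were 0 of all clusters. Of the 39 means, 37 were lower, and 23 genes had an unadjusted p under 0.05. The median difference was -0.195, against -0.02 over all clusters and -0.013 over the brighter ones. The intervals of the 39 genes ran from -0.54 (Psmb1) to 0.29 (Psme4). With MSC-EVs against IL4-EVs, 0 members and 0.00153% of all clusters were called by limma, 3 members had an unadjusted p under 0.05 (Psmc6, Psmd7 and Psmd12, each higher with MSC-EVs), and the intervals ran from -0.3 (Psmb10) to 0.57 (Psmc6). In these direct comparisons no share over all clusters was counted for an unadjusted p or for the sign of a mean. Nothing particular to the members is read from such counts.

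Over all 4 groups together, 29 of the 39 genes differed (limma F test, adjusted p under 0.05), against 8.31% of all clusters and 30.2% of the brighter ones. Without replicate 1 of CTRL the count was 17. Of the members with clusters shared with other symbols, 1 of 2 was called lower with MSC-EVs and with IL4-EVs, and 0 with i-EVs.

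Genes for proteins that build or accompany the proteasome changed in both directions. Of 15 measured assembly, inhibitor and associated factors, 6 fell and 2 rose with MSC-EVs (Akirin2 and Ecpas), 7 fell and 0 rose with IL4-EVs, and 2 fell with i-EVs (Psmg1 and Txnl1). The shares over clusters of at least 6 log2 units were 26.2% lower and 15.3% higher with MSC-EVs, 18% lower with IL4-EVs and 1.75% lower with i-EVs, and nothing particular to the list is read from its counts. Psmg1, a chaperone that starts the alpha ring, read 8.11, 8.05 and 8.18 log2 units with MSC-EVs, 8.1, 7.99 and 8.17 with IL4-EVs, 8.38, 8.21 and 8.35 with i-EVs, and 8.71, 8.81 and 8.71 in CTRL. Pomp, which matures the beta ring, read 11.71, 11.82 and 11.87 with MSC-EVs, 11.71, 11.7 and 11.79 with IL4-EVs, 12.2, 11.94 and 12.11 with i-EVs, and 12.4, 12.41 and 12.39 in CTRL. Both followed the order seen for the subunits, with all vesicle-treated arrays below CTRL and i-EVs in between. Psmg1 changed by -0.63 (adjusted p = 0.000495), -0.65 (adjusted p = 0.0013) and -0.43 (adjusted p = 0.039), and Pomp by -0.6 (adjusted p = 0.000651), -0.67 (adjusted p = 0.0013) and -0.32 (adjusted p = 0.0751), with MSC-EVs, IL4-EVs and i-EVs.

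Txnl1, a thioredoxin-like protein bound to the 19S cap, read 11.21, 11.2 and 11.41 log2 units with MSC-EVs, 11.21, 11.24 and 11.19 with IL4-EVs, 11.53, 11.21 and 11.39 with i-EVs, and 12.12, 11.94 and 11.79 in CTRL. It fell in all 3 comparisons, by 0.68, 0.73 and 0.57 on the log2 scale with MSC-EVs, IL4-EVs and i-EVs. Zfand2a, a stress-inducible proteasome-associated zinc finger protein, read 9.82, 9.78 and 9.82 with MSC-EVs, 9.71, 9.64 and 9.79 with IL4-EVs, 9.9, 9.91 and 9.85 with i-EVs, and 10.12, 10.17 and 10.09 in CTRL. It fell by 0.32 with MSC-EVs and by 0.41 with IL4-EVs. Akirin2, which carries proteasomes into the nucleus, read 12.16, 12.17 and 12.23 with MSC-EVs, 11.84, 11.92 and 11.88 with IL4-EVs, 11.76, 11.89 and 11.89 with i-EVs, and 11.77, 11.75 and 11.71 in CTRL. Only its MSC-EVs arrays stood clearly higher, at 0.44 over CTRL (adjusted p = 0.000964) and 0.34 over i-EVs (adjusted p = 0.028), while the difference of 0.3 from IL4-EVs was not called (adjusted p = 0.225).

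Among 9 ubiquitin and shuttle factors, 2 fell (Ufd1 and Nsfl1c) and 1 rose (Nploc4) both with MSC-EVs and with IL4-EVs, and 0 were called with i-EVs by limma, 3 having an unadjusted p under 0.05. With MSC-EVs these counts are no higher than the shares over clusters of at least 6 log2 units (26.2% lower, 15.3% higher), so the values describe these genes and not the group. The genes called are cofactors of the unfoldase Vcp. Ufd1 read 8.94, 9.02 and 8.65 log2 units with MSC-EVs, 8.94, 8.96 and 9.1 with IL4-EVs, 9.19, 9.1 and 9.3 with i-EVs, and 9.74, 9.68 and 9.57 in CTRL. It fell by 0.79 with MSC-EVs (adjusted p = 7e-04) and by 0.66 with IL4-EVs (adjusted p = 0.00329). None of the 8 measured regulators of proteasome genes was called in any comparison with CTRL (limma, with 2, 1 and 2 genes at an unadjusted p under 0.05 with MSC-EVs, IL4-EVs and i-EVs), and Nfe2l1 changed by 0.12, 0.2 and 0.18. Only 5 of the 8 reached 6 log2 units. Nfe2l2, Mafg and Mafk were dim, with means of 4.64, 4.9 and 4.65, where a difference may be undetectable. Of 16 interferon and MHC class I genes, 0 were called in any comparison with CTRL by limma, with 2, 2 and 1 at an unadjusted p under 0.05, and only B2m was above 6 log2 units. B2m ran from 11.92 to 11.94 with MSC-EVs (a change of -0.3) and from 11.7 to 12.12 with IL4-EVs (-0.34). It ran from 12.13 to 12.27 with i-EVs and from 12.11 to 12.34 in CTRL. In the dim genes of this list a difference may be undetectable.

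Genes outside the proteasome moved with these changes. Of 31 measured genes with short mRNAs and other functions (prefoldin, spliceosome, RNA polymerase and translocon subunits and the like), 23 fell and 0 rose with MSC-EVs, 21 fell and 0 rose with IL4-EVs, and 2 fell with i-EVs, with medians of -0.445, -0.469 and -0.26. The 33 constitutive proteasome genes had medians of -0.41, -0.495 and -0.273. Of 20 measured genes with very long mRNAs, 20, 17 and 4 rose and 0 fell, with medians of 0.942, 0.66 and 0.377. Over clusters of at least 6 log2 units, 26.2%, 18% and 1.75% were lower with MSC-EVs, IL4-EVs and i-EVs. Higher were 15.3% with MSC-EVs and 6.47% with IL4-EVs, and 0.0977% of all clusters with i-EVs. Both lists were written by hand with earlier results of these data known. The length of the mRNAs was not measured, so no length pattern is read from the lists. Their summed level ranged from 14.1 to 14.44 log2 units with MSC-EVs, 13.82 to 14.01 with IL4-EVs, 13.56 to 13.62 with i-EVs and 12.85 to 13.22 in CTRL, and that of the short mRNAs from 15.88 to 16.15, 15.84 to 15.97, 16.16 to 16.33 and 16.49 to 16.54 in the same groups. The part of RNA length or RNA quality in the change of the proteasome genes was not tested.

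**Figure D4:**
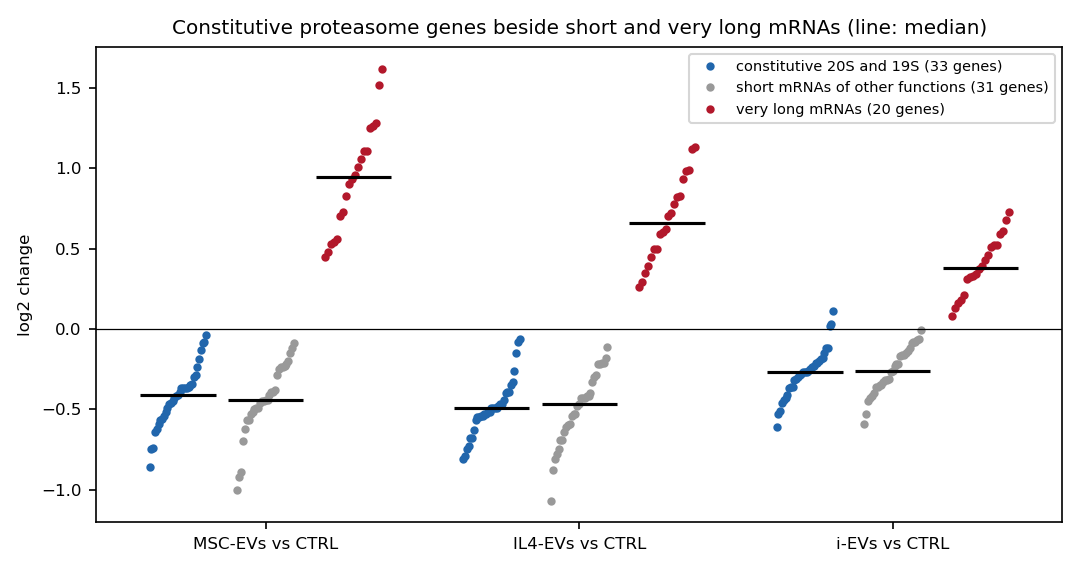
Log2 change against CTRL (vertical axis) with MSC-EVs, IL4-EVs and i-EVs (horizontal axis) of 33 constitutive proteasome genes, 31 genes with short mRNAs of other functions and 20 genes with very long mRNAs, 1 point per gene with the median as a line. The proteasome genes and the short mRNAs lie at about the same depth below 0 (medians of -0.41 and -0.445 with MSC-EVs), and the very long mRNAs lie above 0.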

How the data were processed

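Per the labels, total RNA (100 ng) was hybridised to Clariom D mouse arrays. The authors normalised the 12 arrays with RMA and quantile normalisation on perfect-match probes in TAC 4.0 and deposited linear intensity values per transcript cluster, and Affymetrix Expression Console is named in the submitters' processing notes. For the array's own annotation no build is stated in the material used here. The deposited intensity, from 3.34 to 999968, was taken as log2, and the series-wide and per-array copies differed by at most 4.44e-16 log2 units. The table holds 65535 clusters and ends within chromosome 19, so further clusters may be lacking. It has 30404 clusters with 1 symbol, 2145 with several, from which no gene was named, and 32986 with none.

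Group means were fitted with limma 3.58.1 (R 4.3.3) on all 12 arrays (8 residual degrees of freedom, 3.46 prior), with Benjamini-Hochberg adjustment over all clusters within a comparison. A gene was called at an adjusted p under 0.05, and the fold of 1.5 that the study's methods add was counted separately. Counts at an unadjusted p under 0.05 have no share over all clusters beside them. The scripts were tested on simulated data. The pair Psmb8 against Psmb5, planned with the other pairs, was not run because Psmb5 had no cluster of its own, and that of Psmb9 against Psmb6 was set aside because Psmb9 was too dim to show a shift. Values on every array are given for the 2 genes with the smallest and the 1 with the largest F-test p in each constitutive class, for all immunoproteasome subunits and activators, for members that moved against the majority or differed between vesicles, and for up to 6 associated genes with the smallest F-test p. The members, lists and tests were chosen with earlier results of these data known. Promoters came from a RefSeq table of GRCm38.p6. Python 3.11.15 and matplotlib 3.10.9 were used for the permutation test and the plots.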

Additional observations from a re-analysis of the deposited data

Results flagged for a closer look

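Psmb6 and Psmd6 differed between kinds of vesicles by a direct test, each being lower with MSC-EVs than with i-EVs. Psmb6 averaged 9.63 ± 0.067 log2 units with MSC-EVs and 10.03 ± 0.0742 with i-EVs (SD, n = 3 each), a difference of -0.4 (limma, adjusted p = 0.0286). Psmd6 averaged 11 ± 0.086 with MSC-EVs and 11.28 ± 0.025 with i-EVs, a difference of -0.28 (limma, adjusted p = 0.0496). The dim Psmb6-ps pseudogene cluster differed by -0.5 in the same comparison (limma, adjusted p = 0.0258), and shared signal was not tested. In both Psmb6 and Psmd6 the arrays of the 2 groups did not overlap. Both genes were picked by this test on the same arrays, so the lack of overlap adds no support. Groups of 3 arrays are too small for a test of single outlying arrays.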

How the results depend on the processing

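No called result changed sign under any alternative run. The counts of called members with MSC-EVs and with IL4-EVs against CTRL stayed within 1.5 times their values of 29 and 32, ranging from 24 to 31 and from 23 to 33 when 1 array at a time was left out. The count with i-EVs (4) was 2 after a further quantile normalization, 2 after cyclic loess, 19 with only clusters of at least 6 log2 units, 0 with an intensity trend, 1 with no moderation, 0 with only the 2 groups compared, and 0 to 12 with 1 array left out. That of MSC-EVs against i-EVs (2) was 5, 1, 8, 1, 0 and 0 under the same settings, and 0 to 3 with 1 array left out. That over 4 groups (29) ranged from 17 to 29 with 1 array left out. The counts of 0 for IL4-EVs against i-EVs and MSC-EVs against IL4-EVs were 0 under every alternative run. The medians with MSC-EVs, IL4-EVs and i-EVs were -0.298, -0.39 and -0.166 after quantile normalization and -0.272, -0.381 and -0.139 after cyclic loess, and ranged from -0.448 to -0.364, from -0.506 to -0.468 and from -0.3 to -0.231 with 1 array left out. Cyclic loess moved the median over clusters of at least 6 log2 units to 0.007, 0.019 and 0.018, against -0.095, -0.078 and -0.068, and the calls over all clusters with IL4-EVs to 1771 higher and 1906 lower, against 1054 and 2708. The cause of these shifts was not tested. Since Psmd2, with -0.04, -0.06 and 0.03, changed by 0.15, 0.14 and 0.22 after quantile normalization, its flatness is relative to the scaling. Psmb10 minus Psmb7 differed from CTRL by -0.05 on average over the vesicle-treated arrays (-0.08 to -0.02 with 1 array left out). Of 810 alternative values for the 54 changes of named members against CTRL, 744 kept their side of the threshold, 56 lost the call and 10 gained it. Choosing the dimmest cluster of a gene changed nothing, since every member had 1 cluster.

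Replicate numbers recur in every group, and the deviations of same-numbered arrays were at most weakly correlated (-0.103 to 0.141, with 3 of 18 pairs over 0.1). The pairs of replicate 1 were all positive (0.072 to 0.141) and included those 3. Of the 12 arrays, 6 correlated best with their own number. With the replicate number as a block, 28, 29 and 4 members were called with MSC-EVs, IL4-EVs and i-EVs, and 27 over the 4 groups.

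Signal over background limits Psmb8, Psmb9, Psmd9 and Psmb10, the 4 members under 6 log2 units, and 3 arrays per group limit all values.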
